A study of Mus musculus with 6 samples.

Results

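The genes described here carry cargo through endosomes and make up the lysosome: the Rab GTPases and genes named after them, the sorting nexins (Snx), the vacuolar protein sorting genes (Vps), the Lamp membrane proteins, the cathepsins and the subunits of the vacuolar proton pump (Atp6v). They were chosen by name, as every probe whose transcript accession maps to a mouse symbol made of Snx, Vps, Rab or Lamp plus a number, of Cts plus a single letter, or of a name that begins with Atp6v. The rule took 164 of the 41006 probes, which stand for 130 genes, and 128 of these genes were among the 35785 genes tested. Rab38 and Atp6v1g3 were not tested, since neither was well above background on both arrays of any group.

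The study compared 3 kinds of cultured mouse cells on 6 two-colour oligonucleotide arrays, with 2 arrays per kind described as biological replicates. Multipotent adult progenitor cells (MAPC) were grown from bone marrow in 2% serum with epidermal growth factor at 10 ng/ml, platelet-derived growth factor BB and leukemia inhibitory factor at 1000 units/ml, under 5% oxygen and 6% carbon dioxide. Cells bearing CD45 or Ter119 were removed after 4 weeks, the rest were seeded at 10 cells per well, and RNA was taken after more than 80 population doublings. Both MAPC arrays carry the same clone label, clone 2 with high Oct4. The MAPC p-values therefore reflect how samples of 1 clone vary, not how clones vary. Embryonic stem cells (ESC, labelled C57BL/6) were kept in 15% serum with leukemia inhibitory factor on irradiated embryonic fibroblasts and plated without these feeders before harvest. Neurospheres (NS, labelled C57BL/6), floating aggregates of neural progenitors, came from the forebrain of E11.5 mouse embryos and were grown with epidermal and basic fibroblast growth factors at 20 ng/ml. Each array set Cy3-labelled sample against a Cy5-labelled RNA pool of 11 mouse cell lines. Values are log2 ratios of sample to that pool, so a value of 0 means as much signal as in the pool, and levels can be compared between groups for 1 gene but not between genes.

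As background, Rab GTPases switch between a GTP-bound form on membranes and a GDP-bound form in the cytosol, and each marks particular compartments where it recruits tethers and motors. Sorting nexins and the retromer complex take receptors out of endosomes for recycling, ESCRT complexes sort others into internal vesicles for breakdown, and the HOPS and CORVET complexes tether endosomes and lysosomes before they fuse. The vacuolar ATPase acidifies these compartments through a cytosolic V1 part that burns ATP and a membrane V0 part that conducts protons. Cathepsins are the proteases that work in the acid lumen, and Lamp proteins coat the lysosomal membrane. Transcription factors of the Mitf and Tfe family bind an E-box with flanking bases, found in mammals near many lysosomal genes.

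That E-box can be read in promoters of several members, which are shown because they include pump, membrane and protease genes whose values follow. The RefSeq promoter table (build GRCm38.p6, 250 bases before to 50 bases after each gene's start) held a promoter for 100 of the 128 tested members. The letters TCACGTG, searched on both strands, occurred in 12 of these 100 members (12%), against 4.29% of the 27025 gene symbols in the table. The palindrome TCACGTGA, which contains them, occurred in 8 of 100 members (8%), against 1.12% of all symbols. A gene with several annotated starts, as 16 of the 100 members and 15.4% of all symbols have, was counted where the promoter of any start held the letters. The Ctsa window belongs to the second of its 2 starts. Windows around the match in 6 members are given in the gene's own direction, with every match in capitals:
Atp6v0b at chr4:117887342-117887384 on the minus strand: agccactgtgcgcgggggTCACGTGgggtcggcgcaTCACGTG
Atp6v0d1 at chr8:105566050-105566079 on the minus strand: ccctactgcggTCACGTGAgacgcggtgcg
Atp6v0e at chr17:26676387-26676416 on the plus strand: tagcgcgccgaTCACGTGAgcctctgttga
Lamp1 at chr8:13159081-13159123 on the plus strand: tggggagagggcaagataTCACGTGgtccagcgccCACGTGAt
Ctsa at chr2:164833742-164833772 on the plus strand: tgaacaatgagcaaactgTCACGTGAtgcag
Ctsd at chr7:142387901-142387944 on the minus strand: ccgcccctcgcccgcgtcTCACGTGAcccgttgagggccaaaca

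The other 6 members with a match were Rab5a, Rab23, Vps16, Vps26a, Vps33a and Vps50. Among the 6 printed genes, the match in Atp6v0d1 spanned the annotated start, from 4 bases before it to base 4 of the transcript, and that in Atp6v0e began at base 3 of the transcript. A match is a description of letters and not a binding site. The TCACGTG letters were not in the promoter entries of Ctsc, Ctsl, Snx33, Lamp2 or Atp6v0c, from which nothing follows about any factor.

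Between 91.9% and 99.6% of probe spots on an array were well above background by the scanner software's mark, which is a weak sign that a transcript was present. Of the 128 members, 89 were brighter than the brightest of 314 negative control spots on all 6 arrays and the other 39 on some of them. This line is strict on array MAPC 2, where the brightest control spot was at 165 and the 99th percentile of the controls at 13.3. Several members described below lay under the brightest control spot there, among them Ctsf, Ctsk, Ctss, Rab31, Rab32, Rab34 and Rab3b. Pou5f1, the gene of Oct4 that the MAPC label names, had ratios of 0.91 and 1.33 in MAPC, 3.38 and 2.90 in ESC and -0.25 and -0.29 in NS. Among 10 ESC markers, 8 were higher in ESC than in NS and 2 were not called, among them Sox2 (-0.08), which is also in the neural list. Of the 10, 9 were lower in MAPC than in ESC, 6 of them by at least 2-fold. Esrrb and Fgf4 lay close to the pool in ESC, at 0.16 and 0.30 and at 0.19 and 0.06. Among 8 neural progenitor markers, 7 were lower in MAPC than in NS, and Sox1 was near the pool in NS, at -0.29 and -0.19. Replicate arrays lay close together over the members, with root mean square distances of 0.14 in MAPC, 0.15 in ESC and 0.11 in NS. The members' group means lay 0.76 apart (root mean square) for MAPC minus ESC, 1.04 for MAPC minus NS and 0.78 for ESC minus NS, against 0.66, 0.79 and 0.65 over all genes tested.

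Tests came from a single limma fit of all arrays, and a gene was called where its Benjamini-Hochberg adjusted p over all genes was under 0.05. For MAPC minus ESC, 50 members were higher in MAPC and 31 were lower. Calls took 63.3% of members, against 38.1% of all genes tested (16% higher, 22.1% lower) and 50.4% of genes with a name. For MAPC minus NS, 55 members were higher in MAPC and 28 lower, 64.8% of members, against 43.8% of all genes (21.2% higher, 22.6% lower) and 55.2% of named genes. For ESC minus NS, 45 members were higher in ESC and 32 lower, 60.2% of members, against 38.2% of all genes (19.8% higher, 18.4% lower) and 51.1% of named genes. Much of the members' share of calls was thus also seen over named genes. With the sample channel alone, which leaves out the reference dye, the split was 48 higher and 15 lower for MAPC minus ESC and 20 higher and 33 lower for ESC minus NS. The median difference over members was 0.04, 0.11 and 0.09 in the 3 contrasts, against 0.01, 0.03 and 0.01 over all genes, so no contrast moved the whole family by much.

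A 2-fold difference with an adjusted p under 0.05 was rarer. For MAPC minus ESC it was reached by 11 of 128 members higher and 8 lower, against 2.95% and 5.63% of all genes. Among 12147 named genes, 532 were higher and 1027 lower in this way. For MAPC minus NS, 11 of 128 members were higher and 13 lower, against 4.44% and 6.99% of all genes. Among 12147 named genes, the counts were 864 and 1107. For ESC minus NS, 7 of 128 members were at least 2-fold higher and 9 lower, against 4.72% and 4.27% of all genes. Among 12152 named genes, the counts were 932 and 690. The shares of members 2-fold lower for MAPC minus ESC and 2-fold higher for ESC minus NS were thus near those over all genes. Both were below those over named genes. Of the 155 calls of at least 0.45 log2 units in size, 150 survived leaving out each of the 6 arrays in turn. The other 5, of Rab15, Snx1, Vps33b and Snx11, rest on 1 array in a group and have no value without it, and none of them was lost without any other array. By contrast, 45 of the 86 smaller calls were lost without at least 1 array. The line of 0.45 lies just above the largest call lost in this way, that of Rab2b for MAPC minus NS (-0.446). The lack of losses above it therefore follows from where the line was set. Replicate number coincided with the day on which Feature Extraction read the images, and each called member with values on both days had the same sign on both. The shared sign largely follows from making the calls on these same arrays, so it says little about the reading day. Of the 34 members with several probes, 20 had all probes called alike for MAPC minus ESC, 7 had none called, 6 had some called, and Rab7b alone had opposite calls.

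**Figure D1:**
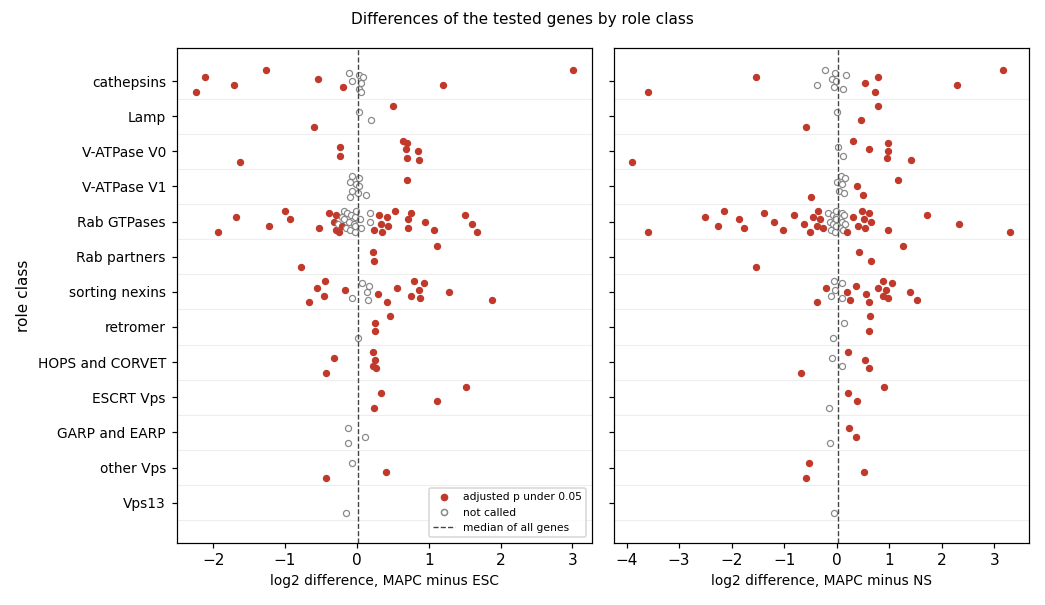
The log2 difference of each tested member is plotted by role class for MAPC minus ESC (left) and MAPC minus NS (right), with filled points for an adjusted p under 0.05, open points for no call, and a dashed line at the median of all genes. V-ATPase V0 genes and sorting nexins lie mostly right of the line in both panels, V1 genes lie near it against ESC, and cathepsins and Rab GTPases reach far to both sides.

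The cathepsins split by group instead of moving together. Of 15 tested, 2 were higher and 6 lower for MAPC minus ESC, 5 higher and 2 lower for MAPC minus NS, and 7 higher and 2 lower for ESC minus NS. Calls took 53.3%, 46.7% and 60% of them. The shares were 38.1%, 43.8% and 38.2% over all genes and 50.4%, 55.2% and 51.1% over named genes. These background shares also stand beside the counts of every class below. Ctsh and Ctsl were highest in MAPC, Ctsc and Ctsf were lowest there, and Ctss and Ctsk were highest in ESC.

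Ctsh, a cysteine cathepsin with aminopeptidase activity, had log2 ratios of 3.70 and 3.45 in MAPC, 0.78 and 0.36 in ESC and 0.42 and 0.41 in NS. Both MAPC arrays stood far above the other 4, whose values lay close together. The difference was 3.01 ± 0.14 (SE, adjusted p = 1.61e-06) against ESC, 8.03-fold higher, and 3.16 ± 0.14 (SE, adjusted p = 7.95e-07) against NS, 8.95-fold higher. A further Ctsh probe gave 3.21 and 3.30. Ctsl, an endopeptidase of most lysosomes that also acts in antigen presentation and prohormone cleavage, had ratios of -0.30 and -0.57 in MAPC, -1.73 and -1.54 in ESC and -2.89 and -2.57 in NS. The groups did not overlap and ran from MAPC through ESC to NS. Its differences were 1.20 ± 0.13 (SE, adjusted p = 0.000196) for MAPC minus ESC, 2.29 ± 0.13 (SE, adjusted p = 3.57e-06) for MAPC minus NS and 1.09 ± 0.13 (SE, adjusted p = 0.000304) for ESC minus NS, and its other probe gave 1.24, 2.50 and 1.26.

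Ctsc, the dipeptidyl peptidase that activates granule proteases of leukocytes, ran the other way, at 0.30 and 0.25 in MAPC, 2.58 and 2.19 in ESC and 3.89 and 3.85 in NS. Its MAPC arrays were lowest and its NS arrays highest, with no overlap. The difference was -2.11 ± 0.11 (SE, adjusted p = 3.82e-06) for MAPC minus ESC and -3.60 ± 0.11 (SE, adjusted p = 1.52e-07) for MAPC minus NS, but its size is uncertain. It ran over -2.35 to -0.91 for MAPC minus ESC and -4.93 to -2.76 for MAPC minus NS across the alternatives tried, and both MAPC arrays, with background-subtracted intensities of 21.1 and 21.9, lay below the brightest negative control spot. The ESC minus NS difference of -1.49 ± 0.11 (SE, adjusted p = 2.37e-05) was not called with plain background subtraction (adjusted p = 0.0554). Ctsf, a cysteine cathepsin with a long propeptide, had 0.27 and 0.22 in MAPC, 1.51 and 1.51 in ESC and 1.77 and 1.79 in NS. Its MAPC arrays lay below all others, with differences of -1.27 ± 0.05 (SE, adjusted p = 8.68e-07) against ESC and -1.54 ± 0.05 (SE, adjusted p = 2.03e-07) against NS, while a dimmer probe for Ctsf gave -0.20 and -0.16 and was not called.

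Ctss, the cathepsin that trims the invariant chain in antigen-presenting cells, had -6.19 and -6.05 in MAPC, -4.03 and -3.71 in ESC and -6.10 and -5.69 in NS. It lay far below the pool in every group, and the ESC arrays were the highest. The difference was -2.25 ± 0.15 (SE, adjusted p = 1.15e-05) for MAPC minus ESC and 2.02 ± 0.15 (SE, adjusted p = 1.88e-05) for ESC minus NS. For MAPC minus NS it was -0.23 with adjusted p = 0.265, or 0.0419 when replicate number, which is also the reading day, entered as a block. Ctsk, the collagen-degrading cathepsin of osteoclasts that fibroblasts also make, had -0.14 and -0.12 in MAPC, 1.92 and 1.25 in ESC and 0.21 and 0.27 in NS. Both ESC arrays were above the rest but lay apart from each other. Its difference was -1.72 ± 0.19 (SE, adjusted p = 0.00018) for MAPC minus ESC and 1.35 ± 0.19 (SE, adjusted p = 0.000652) for ESC minus NS.

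For MAPC minus ESC, most markers of some other cell types went in the same direction as these ESC-high cathepsins. Of 12 macrophage and leukocyte markers with a value, 8 were lower in MAPC than in ESC and none was higher, and their summed Cy3 intensity, after background correction with an offset of 50 per gene and quantile normalization between arrays, was 3960 to 4290 in MAPC, 5680 to 5920 in ESC and 3510 to 3800 in NS. Lyz2, the lysozyme of myeloid cells, had -2.25 and -1.90 in MAPC, 0.82 and 0.98 in ESC and -2.16 and -2.01 in NS, while Ptprc, which encodes CD45, was near background in all groups, with background-subtracted intensities of 8.16 and 11.6 in MAPC, 13 and 15.3 in ESC and 15.8 and 3.26 in NS. Of 9 fibroblast markers, 8 were lower in MAPC than in ESC, with intensities summed in the same way of 1730 to 1910 in MAPC, 15500 to 18600 in ESC and 9760 to 9870 in NS. Against NS, 8 of the 9 were also lower in MAPC and none was higher, while Ctss and Ctsk were not called there in the main fit. Of the 12 leukocyte markers, 2 were higher and 1 lower in MAPC than in NS. Postn, a matrix protein of fibroblasts, did not rise well above background on the MAPC arrays. Of 5 osteoclast markers with a value, Ctsk among them, 1 was higher and 3 lower in MAPC than in ESC, with summed intensities of 1530 to 1630 in MAPC, 1950 to 2020 in ESC and 1210 to 1320 in NS. Their part in the Ctss and Ctsk results was not tested. In bulk RNA, fewer cells of a type and less RNA per cell cannot be told apart. Visceral and primitive endoderm markers moved with the MAPC-high genes: 5 of 7 were higher and 1, Amn, was lower in MAPC than in ESC, with summed intensities of 27800 to 30400 in MAPC, 1370 to 1500 in ESC and 1160 to 1250 in NS, and Sox17 was at 5.31 and 5.32 in MAPC, -0.11 and -0.13 in ESC and -0.38 and -0.32 in NS. The part of these markers in the MAPC-high results was likewise not tested.

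Ctsd, Ctsa and Ctsz were higher in MAPC and in ESC than in NS. Ctsd, the main aspartic protease of lysosomes, had 0.40 and 0.49 in MAPC, 0.58 and 0.70 in ESC and -0.34 and -0.36 in NS, and the NS arrays were the lowest. Its difference was 0.80 ± 0.06 (SE, adjusted p = 2.35e-05) for MAPC minus NS and 0.99 ± 0.06 (SE, adjusted p = 8.83e-06) for ESC minus NS, and the call of -0.19 for MAPC minus ESC was lost without array MAPC 1, MAPC 2, ESC 2, NS 1 or NS 2 (-0.24 to -0.13, adjusted p from 0.0579 to 0.212). Ctsa, the serine carboxypeptidase that protects neuraminidase and beta-galactosidase, had 0.15 and 0.09 in MAPC, 0.05 and 0.08 in ESC and -0.62 and -0.61 in NS, with differences of 0.73 ± 0.05 (SE, adjusted p = 1.38e-05) for MAPC minus NS and 0.67 ± 0.05 (SE, adjusted p = 2.69e-05) for ESC minus NS.

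Ctsz, a carboxypeptidase, was at -1.85 and -1.82 in MAPC, -1.76 and -1.77 in ESC and -2.34 and -2.42 in NS, and both MAPC and ESC lay above NS, by 0.54 and 0.61 (adjusted p = 9.18e-05 and 5.43e-05). Ctsb, an abundant cysteine cathepsin, was at -2.59 and -2.49 in MAPC, -1.84 and -2.16 in ESC and -2.45 and -2.54 in NS. Its ESC arrays were highest, with a difference of -0.54 ± 0.10 (SE, adjusted p = 0.00428) for MAPC minus ESC, a call lost without background subtraction and with the sample channel alone. Its other probe gave -0.14 for MAPC minus ESC, with no call.

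The other 5 cathepsins were not called in any contrast by their brightest probes. Ctse, an aspartic protease of stomach and immune cells, had -0.64 and -0.67 in MAPC, -0.71 and -0.67 in ESC and -0.58 and -0.67 in NS, and Ctsg, a serine protease of neutrophil granules, had -0.07 and -0.06 in MAPC, -0.13 and -0.05 in ESC and 0.00 and -0.12 in NS. Ctsw, found in cytotoxic lymphocytes, had -0.03 and -0.11 in MAPC, -0.12 and -0.12 in ESC and -0.16 and -0.34 in NS. The placental rodent cathepsins Ctsm and Ctsr lay close to the pool, Ctsm at 0.01 and -0.01 in MAPC, 0.10 and 0.12 in ESC and 0.05 and 0.14 in NS and Ctsr at 0.10 and 0.00 in MAPC, 0.00 and -0.08 in ESC and -0.04 and -0.12 in NS. For all 5 the groups overlapped or lay close together by these probes. The other Ctsg probe was called lower in MAPC than in ESC (-0.24) and higher in ESC than in NS (0.21).

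**Figure D2:**
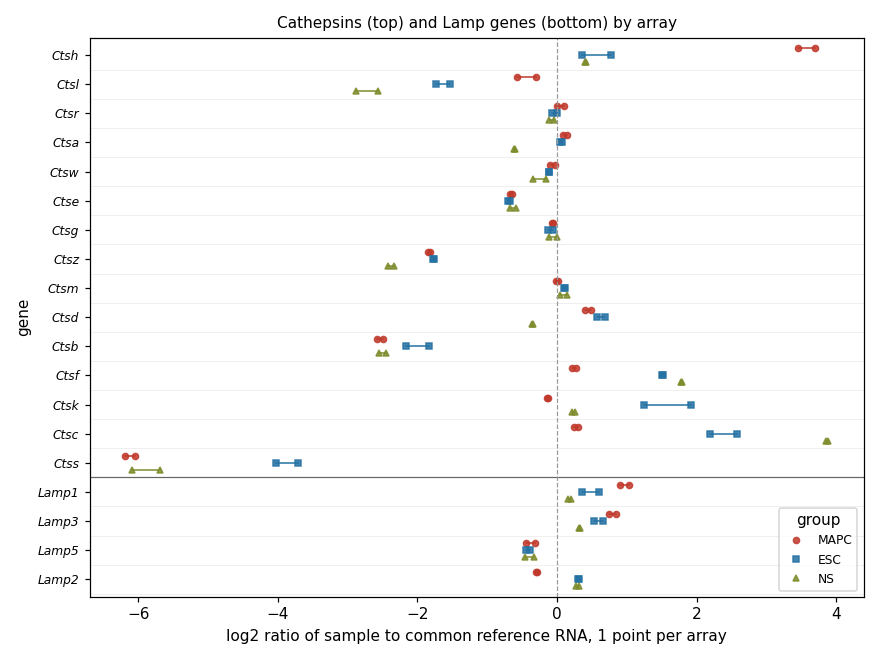
Each point is the log2 ratio of sample to reference pool on 1 array for a cathepsin (top) or Lamp gene (bottom), with MAPC, ESC and NS in colours and a line joining the 2 arrays of a group. Ctsh and Ctsl are highest in MAPC, Ctsc and Ctsf lowest in MAPC, and Ctss and Ctsk highest in ESC, while Lamp1 and Lamp2 stand on opposite sides in MAPC.

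The main lysosomal membrane proteins went in opposite directions. Lamp1 had 1.03 and 0.91 in MAPC, 0.36 and 0.60 in ESC and 0.20 and 0.16 in NS, and both MAPC arrays were above the other 4. The difference was 0.50 ± 0.09 (SE, adjusted p = 0.00264) for MAPC minus ESC and 0.79 ± 0.09 (SE, adjusted p = 0.000157) for MAPC minus NS. Lamp2, whose loss causes Danon disease in humans and impairs autophagy, had -0.29 and -0.29 in MAPC, 0.30 and 0.32 in ESC and 0.31 and 0.27 in NS. Its MAPC arrays were below the other 4, which did not separate, with differences of -0.60 ± 0.05 (SE, adjusted p = 4.76e-05) against ESC and -0.58 ± 0.05 (SE, adjusted p = 4.2e-05) against NS. Lamp3, known from mature dendritic cells, had 0.74 and 0.84 in MAPC, 0.66 and 0.53 in ESC and 0.33 and 0.32 in NS, with a difference of 0.47 ± 0.07 (SE, adjusted p = 0.000589) for MAPC minus NS and 0.20 (adjusted p = 0.0508) for MAPC minus ESC, while its other probe gave 0.06 for MAPC minus NS and was not called. Lamp5, a neuronal member, overlapped between all groups at -0.45 and -0.32 in MAPC, -0.45 and -0.39 in ESC and -0.46 and -0.33 in NS.

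Within the proton pump, most genes of the membrane part were higher in MAPC, while few genes of the cytosolic part were called against ESC. Of 9 V0 genes, 6 were higher in MAPC than in ESC and 3 lower, with a median difference of 0.68, and 6 were higher than in NS and 1 lower, with a median of 0.62. With the sample channel alone, 1 V0 gene was lower than in ESC. Of 10 V1 genes, 1 was higher than in ESC and 9 were not called (median 0.00), while 3 were higher than in NS and 1 was lower (median 0.12). The V1 counts and medians depend on which subunit genes were tested. Atp6v1a and Atp6v1e1 were not among them, while Atp6v1b1, Atp6v1c2, Atp6v1e2 and Atp6v1g2 were, and none of these was called against ESC. The difference between the V0 and V1 parts was not tested.

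Atp6v0c, which forms most of the proteolipid ring that carries the protons, had 1.83 and 1.70 in MAPC, 0.89 and 0.93 in ESC and 0.86 and 0.70 in NS, with a difference of 0.86 ± 0.08 (SE, adjusted p = 5.68e-05) against ESC and 0.98 ± 0.08 (SE, adjusted p = 1.91e-05) against NS. Atp6v0b, another ring subunit, had 1.81 and 1.49 in MAPC, 0.70 and 0.85 in ESC and 1.08 and 0.98 in NS, higher by 0.87 ± 0.11 (SE, adjusted p = 0.000392) and 0.62 ± 0.11 (SE, adjusted p = 0.00216). In both genes the 2 MAPC arrays lay above the other 4, and their further probes, at 0.98 and 1.26 for Atp6v0c and 0.84 and 0.52 for Atp6v0b, were called in the same direction.

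Atp6v0d1, which couples the ring to the rotor stalk, had 2.27 and 2.12 in MAPC, 1.48 and 1.51 in ESC and 1.27 and 1.17 in NS, with differences of 0.70 ± 0.07 (SE, adjusted p = 9.76e-05) and 0.98 ± 0.07 (SE, adjusted p = 1.08e-05). Atp6v0e, a small membrane subunit, had 1.31 and 1.33 in MAPC, 0.65 and 0.72 in ESC and 0.36 and 0.36 in NS, with differences of 0.64 ± 0.05 (SE, adjusted p = 4.13e-05) and 0.96 ± 0.05 (SE, adjusted p = 3.04e-06). Both genes again had their highest values in MAPC with no overlap.

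The a subunits, which decide the membrane to which the pump is sent, did not share a pattern. Atp6v0a2, linked to the Golgi and endosomes, had 2.08 and 2.37 in MAPC, 1.49 and 1.59 in ESC and 1.90 and 1.92 in NS, higher in MAPC than in ESC by 0.68 ± 0.09 (SE, adjusted p = 0.000671), or by 0.31 with its other probe. Its smaller difference from NS, 0.31, was lost without array MAPC 2, NS 1 or NS 2 (0.17 to 0.32, adjusted p from 0.0989 to 0.122). Atp6v0a4, known from acid-secreting cells of the kidney, had 1.22 and 1.29 in MAPC, 0.83 and 0.27 in ESC and -0.15 and -0.17 in NS. Its MAPC arrays were highest, by 0.70 ± 0.16 (SE, adjusted p = 0.00859) against ESC and 1.42 ± 0.16 (SE, adjusted p = 0.000158) against NS, and the ESC arrays lay far apart, so that the difference from ESC was 0.42 without array ESC 2 and 0.99 without array ESC 1, both called. For ESC minus NS it was 0.71 ± 0.16 (SE, adjusted p = 0.00778), or 0.43 without array ESC 1 and 0.99 without array ESC 2, and that call was lost with the sample channel alone. Atp6v0a1, the widespread form, had 0.46 and 0.51 in MAPC, 0.72 and 0.73 in ESC and 0.36 and 0.37 in NS, and its -0.23 for MAPC minus ESC was lost without array MAPC 1 (-0.21, adjusted p = 0.0517).

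Atp6v0e2, the second e subunit, showed the largest difference of any member in the MAPC minus NS contrast. Its ratios were -0.75 and -0.75 in MAPC, 0.89 and 0.85 in ESC and 3.11 and 3.16 in NS, and the replicates of each group agreed closely while the groups stood far apart. The difference was -3.89 ± 0.05 (SE, adjusted p = 6.95e-09) for MAPC minus NS, 14.8-fold lower, -1.63 ± 0.05 (SE, adjusted p = 2.91e-07) for MAPC minus ESC and -2.26 ± 0.05 (SE, adjusted p = 7.52e-08) for ESC minus NS. Atp6v0e and Atp6v0e2 thus ran in opposite orders over the 3 cell kinds. The size of the Atp6v0e2 differences from MAPC is uncertain. That for MAPC minus ESC ran over -1.97 to -0.82 across the alternatives, smallest without background subtraction. Its background-subtracted intensity of 80.1 on array MAPC 2 lay below the brightest negative control spot there (165), though above the 99th percentile of the controls (13.3). Atp6v0d2, the d subunit of osteoclasts and kidney, had -0.84 and -0.87 in MAPC, -0.66 and -0.57 in ESC and -0.88 and -0.89 in NS, and its -0.24 for MAPC minus ESC was lost without array MAPC 2 or ESC 2 (-0.23 to -0.19, adjusted p from 0.0564 to 0.0577).

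Among V1 genes, Atp6v1b2, the widespread form of the B subunit in the ATP-splitting head, was the one higher in MAPC than in ESC. It had 1.82 and 1.81 in MAPC, 1.13 and 1.10 in ESC and 0.70 and 0.60 in NS, with differences of 0.70 ± 0.06 (SE, adjusted p = 3.65e-05) against ESC and 1.16 ± 0.06 (SE, adjusted p = 1.52e-06) against NS. Its groups were fully separated in the order MAPC, ESC, NS. Atp6v1c1, which joins the head to the stator, had 0.15 and 0.11 in MAPC, 0.12 and 0.09 in ESC and -0.35 and -0.38 in NS, overlapping between MAPC and ESC and higher in each than in NS by 0.49 ± 0.05 (SE, adjusted p = 0.00012) and 0.47 ± 0.05 (SE, adjusted p = 0.000193). Atp6v1g1, a stator subunit, had -1.40 and -1.38 in MAPC, -1.55 and -1.49 in ESC and -0.90 and -0.92 in NS and was lower in both MAPC and ESC than in NS, with differences of -0.48 ± 0.05 (SE, adjusted p = 0.000155) and -0.61 ± 0.05 (SE, adjusted p = 4.75e-05). Its other probe was not called for MAPC minus NS (-0.18) and was higher in MAPC than in ESC, by 0.45. Atp6v1b1, the B subunit of kidney and inner ear, was not called in any contrast, with differences from 0.01 to 0.11.

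**Figure D3:**
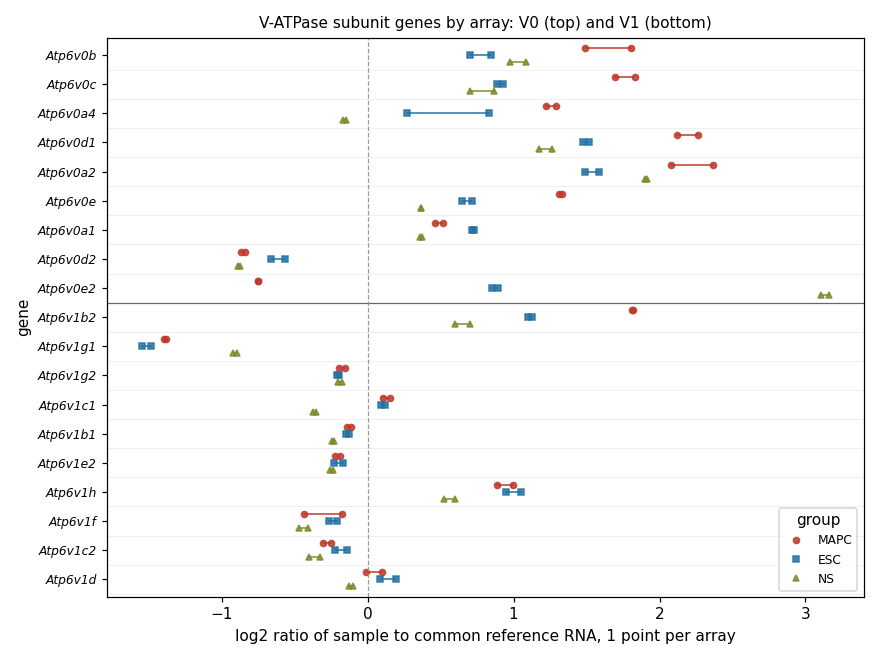
Each point is the log2 ratio to the reference pool on 1 array for a V0 gene (top) or V1 gene (bottom), by group. Atp6v0a2, Atp6v0a4, Atp6v0b, Atp6v0c, Atp6v0d1 and Atp6v0e are highest in MAPC, Atp6v0e2 runs the opposite way up to 3.16 in NS, and most V1 genes overlap between MAPC and ESC.

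The 45 tested Rab GTPases divided about evenly for MAPC minus ESC, and more were lower than higher against NS in both MAPC and ESC. For MAPC minus ESC, 15 were higher, 12 lower and 18 not called (median -0.03). For MAPC minus NS, 12 were higher and 17 lower (median -0.03), and for ESC minus NS, 10 were higher and 17 lower (median -0.10). The 10 became 6 without array NS 1, and 7 were lower than in ESC with the sample channel alone. The Rabs described next were taken by the size of their differences or as relatives of those, and the roles given with them are background.

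Rab4a, which returns receptors from early endosomes straight to the surface, had 2.99 and 2.76 in MAPC, 1.95 and 1.91 in ESC and 0.58 and 0.49 in NS. The groups were separated in the order MAPC, ESC, NS. Differences were 0.95 ± 0.08 (SE, adjusted p = 5.28e-05) for MAPC minus ESC and 2.34 ± 0.08 (SE, adjusted p = 2.6e-07) for MAPC minus NS, 5.06-fold higher. Rab4b, its close relative, was higher in MAPC by 0.41 and 0.53 (adjusted p = 0.000756 and 0.000142). Rab15, which acts in early and recycling endosomes, had 4.66 in MAPC, 3.30 and 2.80 in ESC and 1.39 and 1.35 in NS, where 1 MAPC array was measured because the spot on the other was marked as an outlier and left out. The SE and p of such a gene take the spread of the group with 1 array from the other groups. That array was the highest of all, with differences of 1.61 ± 0.18 (SE, adjusted p = 0.00052) and 3.29 ± 0.18 (SE, adjusted p = 1.05e-05), the second 9.81-fold higher. Rab13, of recycling endosomes and tight junctions, and Rab11a, of the recycling endosome, were higher in MAPC than in ESC by 0.75 and 0.53 (adjusted p = 8.3e-05 and 0.00194) but not called against NS (-0.16 and 0.11).

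The Rab5 genes, whose products define early endosomes, moved little. Rab5a, Rab5b and Rab5c differed by -0.04, -0.03 and -0.19 for MAPC minus ESC, with no call. For MAPC minus NS the differences were 0.21, -0.03 and -0.37, where the call of Rab5a was lost without array MAPC 1 or NS 1 (0.19 to 0.20, adjusted p from 0.0641 to 0.0827) and that of Rab5c without array NS 1 (-0.30, adjusted p = 0.0536).

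Rab30, a Golgi Rab, had 1.79 and 1.73 in MAPC, 0.11 and 0.08 in ESC and 0.01 and 0.09 in NS. Both MAPC arrays were far above the other 4, whose ratios lay close together. Background-subtracted intensities were 114 and 111 in MAPC, 16.5 and 20.5 in ESC and 23.3 and 20.7 in NS. Those on arrays MAPC 2, ESC 2, NS 1 and NS 2 lay below the brightest negative control spot of the array. For spots as dim as those of ESC and NS, such ratios do not show a level like that of the pool. The size of the difference from MAPC is therefore uncertain. The difference was 1.67 ± 0.06 (SE, adjusted p = 3.56e-07) against ESC and 1.71 ± 0.06 (SE, adjusted p = 1.81e-07) against NS, and it ran over 0.48 to 2.84 and 0.48 to 2.94 across the alternatives, with the lowest values without background subtraction. Other Rabs of the Golgi and its traffic with the endoplasmic reticulum did not all move this way. Those higher in MAPC than in ESC were Rab6b by 1.50 (adjusted p = 9.69e-06), Rab33b by 1.07 (1.94e-06), Rab1b by 0.72 (3.37e-05), Rab2a by 0.71 (8.38e-05) and Rab1a by 0.34 (0.00259). Of these, Rab6b, Rab33b, Rab1b and Rab1a were also higher than in NS, by 0.65, 0.55, 0.62 and 0.40. The second probes of Rab33b and Rab1b gave 0.30 and 0.25 for MAPC minus ESC, smaller than those quoted, and that of Rab1b was not called for MAPC minus NS (0.11). Rab6a, Rab2b and Rab43, with 0.19, -0.26 and 0.05, were not called against ESC. Against NS, Rab6a and Rab2b were lower, with differences of -0.62 and -0.45, and Rab43 was not called. The Rab2b call against NS was lost without array MAPC 2 (-0.39) or NS 1 (-0.30).

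Rab32, Rab9, Rab29 and Rab34 were lower in MAPC than in both other groups. Rab32, needed for melanosomes and other lysosome-related organelles, had -2.45 and -2.56 in MAPC, -0.70 and -0.44 in ESC and -0.78 and -0.68 in NS. Its MAPC arrays were lowest, with differences of -1.94 ± 0.09 (SE, adjusted p = 2.05e-06) against ESC and -1.77 ± 0.09 (SE, adjusted p = 2.16e-06) against NS, and its other probe gave -0.26 and -0.17. Rab9, which guides mannose 6-phosphate receptors from late endosomes to the Golgi, differed by -0.52 ± 0.10 (SE, adjusted p = 0.00335) and -1.01 ± 0.10 (SE, adjusted p = 6.53e-05). Rab29, a relative of Rab32 at the Golgi and lysosomes, differed by -0.93 ± 0.08 (SE, adjusted p = 5.61e-05) and -1.39 ± 0.08 (SE, adjusted p = 4.28e-06), while its other probe gave -0.31 and -0.47. Rab34, linked to lysosome position and cilia, differed by -1.22 ± 0.06 (SE, adjusted p = 1.87e-06) and -1.20 ± 0.06 (SE, adjusted p = 1.39e-06). Rab7, the main late endosome Rab, differed by -0.36 (adjusted p = 0.00149) from NS, and its -0.21 against ESC was lost without array MAPC 1, MAPC 2 or ESC 2 (-0.22 to -0.16, adjusted p from 0.0749 to 0.121).

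Rab7b, which acts between late endosomes and the Golgi, was the member whose probes disagreed. Its brighter probe gave -0.99 for MAPC minus ESC and its other probe gave 0.49, both called. No direction is given for Rab7b.

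Rab27a, which moves melanosomes and secretory granules to the cell surface, was highest in ESC. It had -0.06 and -0.11 in MAPC, 1.69 and 1.50 in ESC and -0.95 and -1.17 in NS, and the groups were separated in the order ESC, MAPC, NS. The differences were -1.68 ± 0.09 (SE, adjusted p = 4.11e-06) for MAPC minus ESC, 0.97 ± 0.09 (SE, adjusted p = 6.23e-05) for MAPC minus NS and 2.65 ± 0.09 (SE, adjusted p = 3.94e-07) for ESC minus NS, 6.29-fold higher. Its relative Rab27b was not well above background on the MAPC arrays, and its level there was at least 1.09-fold lower than in ESC (adjusted p = 0.00074), a call lost without background subtraction and with the sample channel alone.

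Rab3b, Rab33a, Rab31, Rab39b and Rab8b were highest in NS. Rab3b, of synaptic and secretory vesicles, had 0.24 and 0.01 in MAPC, 0.37 and 0.29 in ESC and 3.58 and 3.85 in NS. The NS arrays were far above the rest, and MAPC and ESC lay close to each other. The difference was -3.59 ± 0.11 (SE, adjusted p = 1.09e-07) for MAPC minus NS and -3.38 ± 0.11 (SE, adjusted p = 2.53e-07) for ESC minus NS, 12-fold and 10.4-fold lower, and the other probe gave -2.85 and -2.93. Rab33a, which acts in vesicle transport in axons, had 0.05 and 0.10 in MAPC, 0.52 and 0.27 in ESC and 2.66 and 2.50 in NS, with differences of -2.50 ± 0.09 (SE, adjusted p = 3.06e-07) and -2.18 ± 0.09 (SE, adjusted p = 9.56e-07) from NS. Rab31, which moves cargo from the Golgi to endosomes, had -0.08 and -0.24 in MAPC, -0.51 and -0.50 in ESC and 2.13 and 2.05 in NS, with differences of -2.25 ± 0.07 (SE, adjusted p = 1.25e-07) and -2.59 ± 0.07 (SE, adjusted p = 1.23e-07).

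Rab39b, a neuronal Rab whose loss causes intellectual disability in humans, had -0.07 and -0.69 in MAPC, -0.19 and -0.22 in ESC and 1.77 and 1.76 in NS. Its MAPC arrays differed from each other by more than those of most members, and both were still far below NS, with a difference of -2.14 ± 0.17 (SE, adjusted p = 2.42e-05), with -1.97 ± 0.17 (SE, adjusted p = 4.83e-05) for ESC minus NS. Rab8b, which carries cargo to the plasma membrane, had -2.11 and -1.90 in MAPC, -1.79 and -1.72 in ESC and -0.19 and -0.12 in NS, with -1.85 ± 0.08 (SE, adjusted p = 7.58e-07) for MAPC minus NS and -1.60 ± 0.08 (SE, adjusted p = 2.35e-06) for ESC minus NS. Rab3a, the main Rab of synaptic vesicles, was lower in MAPC and in ESC than in NS, with differences of -0.51 and -0.94 (adjusted p = 0.000143 and 5.49e-06), the first lost with the sample channel alone. Rab3d overlapped between all groups. Of 5 neuron markers with a value, 4 were lower in MAPC than in NS and 1 was higher, with summed intensities of 6600 to 8880 in MAPC, 24900 to 26600 in ESC and 11300 to 11600 in NS. For ESC minus NS, 2 of these markers were higher and 3 lower (median -0.26), so the larger sum in ESC does not stand for most of them. The part of the neuron markers in these results was not tested.

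**Figure D4:**
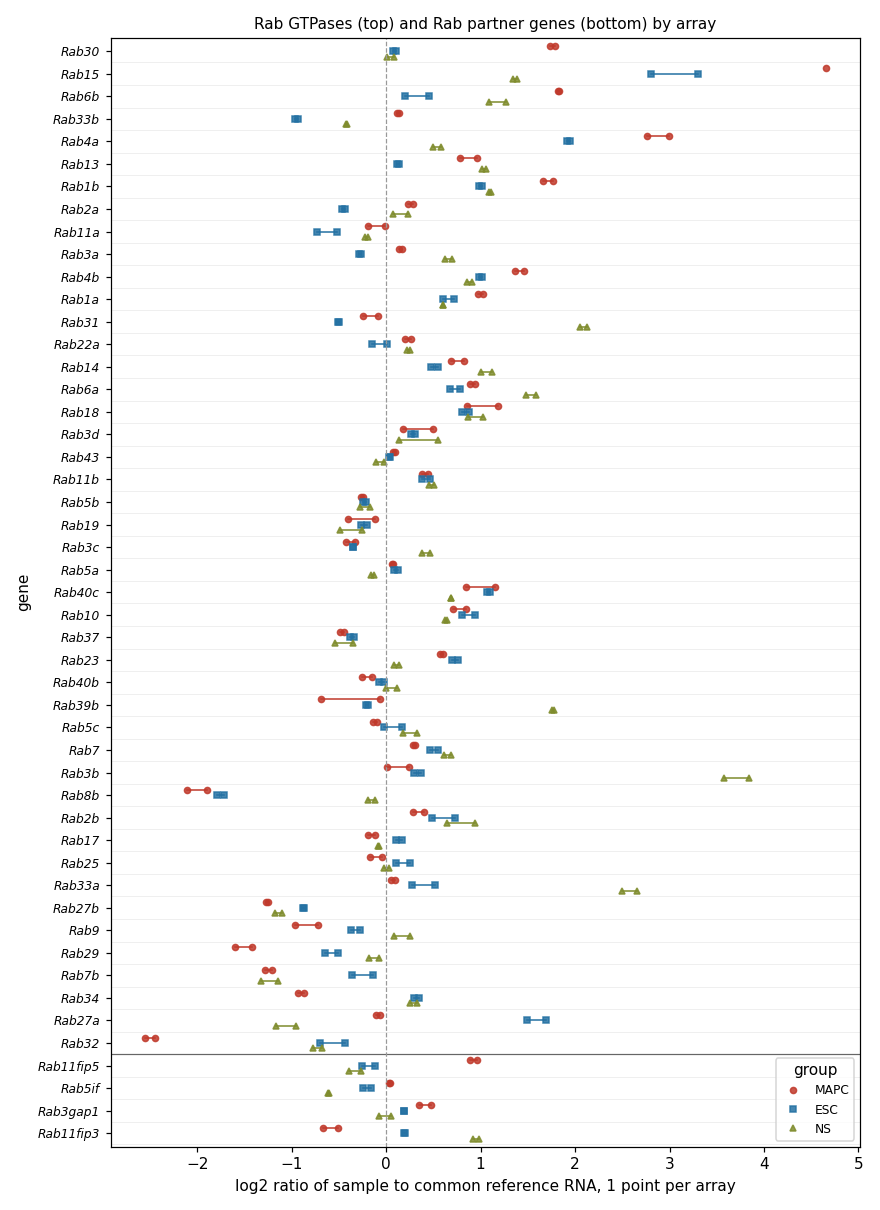
Each point is the log2 ratio to the reference pool on 1 array for a Rab GTPase (top) or a Rab partner (bottom), ordered by the MAPC minus ESC difference. Rab30, Rab15, Rab6b and Rab4a lead in MAPC, Rab27a in ESC, and Rab3b, Rab33a, Rab31 and Rab39b stand apart in NS.

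Genes named for Rab partners included a pair of Rab11 effectors that moved in opposite directions. Rab11fip5, which works with Rab11 on apical recycling and exocytosis, had 0.89 and 0.96 in MAPC, -0.26 and -0.12 in ESC and -0.27 and -0.40 in NS, with MAPC above both others by 1.11 ± 0.07 (SE, adjusted p = 1.05e-05) and 1.26 ± 0.07 (SE, adjusted p = 3.67e-06). Rab11fip3, which brings recycling endosomes to the centrosome and the dividing furrow, had -0.67 and -0.51 in MAPC, 0.20 and 0.19 in ESC and 0.92 and 0.98 in NS, in the reverse order with no overlap. Its differences were -0.78 ± 0.07 (SE, adjusted p = 5.33e-05) for MAPC minus ESC and -1.54 ± 0.07 (SE, adjusted p = 8.73e-07) for MAPC minus NS. Rab5if had 0.05 and 0.03 in MAPC, -0.25 and -0.16 in ESC and -0.61 and -0.62 in NS and was higher in MAPC by 0.24 ± 0.05 (SE, adjusted p = 0.0089) and 0.65 ± 0.05 (SE, adjusted p = 3.23e-05), the first lost with the deposited processed values and with the sample channel alone. Rab3gap1, a subunit of the protein that turns off Rab3, had 0.48 and 0.35 in MAPC, 0.19 and 0.19 in ESC and 0.05 and -0.08 in NS, higher in MAPC than in NS by 0.43 ± 0.07 (SE, adjusted p = 0.00131), while its 0.22 against ESC was lost without array MAPC 1, ESC 1 or ESC 2 (0.16 to 0.22, adjusted p from 0.104 to 0.189).

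Sorting nexins were more often higher than lower in MAPC. Of 20 tested, 10 were higher and 5 lower than in ESC (median 0.23), and 13 were higher and 2 lower than in NS (median 0.46), against medians of 0.01 and 0.03 over all genes. For ESC minus NS, 9 were higher and 4 lower (median 0.13). With the sample channel alone, 1 was lower than in ESC, none was lower than in NS, and 4 were higher in ESC than in NS. The pair lower than in NS, Snx15 and Snx20, was not called without array NS 1, and 1 of them was called without MAPC 1, MAPC 2 or NS 2. The largest differences from ESC were those of Snx33 and Snx1.

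Snx33, a membrane-bending nexin of endocytosis, had 1.80 and 1.78 in MAPC, -0.03 and -0.14 in ESC and 0.43 and 0.37 in NS. Both MAPC arrays were well above the other 4, by 1.88 ± 0.06 (SE, adjusted p = 2.61e-07) against ESC and 1.39 ± 0.06 (SE, adjusted p = 7.09e-07) against NS, 3.67-fold and 2.63-fold higher. The difference from ESC ran over 0.83 to 2.42 across the alternatives, with the lowest value without background subtraction. On array ESC 2 its background-subtracted intensity of 72.6 lay below the brightest negative control spot (83.3). Snx4, which takes transferrin receptor out of early endosomes for recycling, differed by 0.94 ± 0.08 (SE, adjusted p = 3.51e-05) and 0.78 ± 0.08 (SE, adjusted p = 7.43e-05). Snx8 differed by 0.80 and 0.89 (adjusted p = 1.55e-05 and 5.96e-06), although a dim probe of Snx8 gave 0.12 and 0.17 and was not called. Snx12 and Snx24, whose cargo is less known, differed by 0.41 and 0.56 against ESC and by 0.95 and 0.89 against NS (adjusted p from 1.44e-05 to 0.00197). Snx17, which recycles integrins and lipoprotein receptors, differed by 0.75 ± 0.06 (SE, adjusted p = 3.48e-05) and 0.36 ± 0.06 (SE, adjusted p = 0.0017).

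Snx1, Snx2, Snx5 and Snx6 pair with each other to form the coat that leads receptors from endosomes to the Golgi, and they did not share a pattern. Snx1 had -0.09 in MAPC, -1.41 and -1.33 in ESC and -0.18 and -0.21 in NS, with 1 MAPC array measured. MAPC and NS lay together and ESC lay far below. With the spread of MAPC taken from the other groups, the tests gave differences of 1.28 ± 0.07 (SE, adjusted p = 1.55e-05) for MAPC minus ESC and -1.18 ± 0.06 (SE, adjusted p = 7.82e-06) for ESC minus NS. Snx2 had 0.68 and 0.76 in MAPC, -0.19 and -0.09 in ESC and -0.84 and -0.78 in NS, separated in the order MAPC, ESC, NS, with 0.86 ± 0.06 (SE, adjusted p = 1.88e-05) for MAPC minus ESC and 1.53 ± 0.06 (SE, adjusted p = 5.37e-07) for MAPC minus NS.

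Snx5 had -0.12 and -0.10 in MAPC, 0.37 and 0.31 in ESC and -1.10 and -1.09 in NS, and here ESC was highest and NS lowest. Its differences were -0.46 ± 0.05 (SE, adjusted p = 0.000257) for MAPC minus ESC, 0.98 ± 0.05 (SE, adjusted p = 2.39e-06) for MAPC minus NS and 1.44 ± 0.05 (SE, adjusted p = 4.92e-07) for ESC minus NS. Snx6 was higher in MAPC by 0.88 ± 0.06 (SE, adjusted p = 9.97e-06) against ESC and 1.06 ± 0.06 (SE, adjusted p = 2.51e-06) against NS, and its other probe gave 0.61 and 0.51.

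Of the nexins that were lower in MAPC than in ESC, Snx11, of endosomes, had 0.76 and 0.73 in MAPC, 1.52 and 1.31 in ESC and 0.65 in NS, with 1 NS array measured. Its difference was -0.67 ± 0.08 (SE, adjusted p = 0.000645), a call lost with the sample channel alone and with outlier spots kept. Snx20, a nexin of leukocytes, had -2.25 and -2.48 in MAPC, -1.77 and -1.84 in ESC and -1.86 and -2.13 in NS, with -0.56 ± 0.11 (SE, adjusted p = 0.00421) for MAPC minus ESC, lost without background subtraction and with the sample channel alone, and -0.37 for MAPC minus NS, lost without array MAPC 2 or NS 1 (-0.25 to -0.23, adjusted p from 0.146 to 0.154) and in both of those settings. Snx15 had 0.27 and 0.34 in MAPC, 0.48 and 0.46 in ESC and 0.49 and 0.51 in NS, and its -0.17 for MAPC minus ESC was lost without array MAPC 1, MAPC 2, ESC 1, ESC 2, NS 1 or NS 2 (-0.20 to -0.13, adjusted p from 0.0617 to 0.191). It was lost for MAPC minus NS, at -0.20, without array MAPC 1, NS 1 or NS 2 (-0.21 to -0.17, adjusted p from 0.0671 to 0.0968).

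Of the 4 genes of the retromer, which the nexins work with, 3 were higher in MAPC than in ESC and 2 were higher than in NS. Vps35, its scaffold, had 1.18 and 1.07 in MAPC, 0.60 and 0.72 in ESC and 0.57 and 0.42 in NS, with 0.47 ± 0.08 (SE, adjusted p = 0.00171) for MAPC minus ESC and 0.64 ± 0.08 (SE, adjusted p = 0.000244) for MAPC minus NS, and its other probe gave 0.53 and 0.80. Vps26a, an arm of the complex, had 1.12 and 0.91 in MAPC, 0.74 and 0.77 in ESC and 0.41 and 0.39 in NS, higher than in NS by 0.61 ± 0.08 (SE, adjusted p = 0.000303), while its 0.26 against ESC was lost without array MAPC 1, ESC 1, ESC 2, NS 1 or NS 2 (0.15 to 0.27, adjusted p from 0.0542 to 0.141). Vps26b, its paralog, had 0.35 and 0.36 in MAPC, 0.14 and 0.08 in ESC and 0.45 and 0.42 in NS, and ESC lay below both others, with differences of 0.25 ± 0.05 (SE, adjusted p = 0.00672) for MAPC minus ESC and -0.33 ± 0.05 (SE, adjusted p = 0.00155) for ESC minus NS. Vps29 differed by 0.02 and 0.14 in the MAPC contrasts, with no call. Vps26c, of the related retriever complex, had 0.62 and 0.66 in MAPC, 0.20 and 0.26 in ESC and 0.12 and 0.12 in NS, higher in MAPC by 0.41 ± 0.05 (SE, adjusted p = 0.000501) and 0.52 ± 0.05 (SE, adjusted p = 0.000102).

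For MAPC minus ESC, the Vps genes with the largest differences belonged to ESCRT complexes, and all 4 ESCRT Vps genes tested were higher in MAPC. Other ESCRT genes with a Vps name, such as Vps4b and Vps36, were not among those tested. Vps4a, the ATPase that takes ESCRT filaments apart, had 2.10 and 2.20 in MAPC, 0.59 and 0.68 in ESC and 1.24 and 1.24 in NS. The groups were separated in the order MAPC, NS, ESC, with 1.52 ± 0.06 (SE, adjusted p = 8.23e-07) for MAPC minus ESC, 2.86-fold higher, 0.91 ± 0.06 (SE, adjusted p = 8.62e-06) for MAPC minus NS and -0.60 ± 0.06 (SE, adjusted p = 0.000112) for ESC minus NS. Vps37b, of ESCRT-I, had 1.58 and 1.44 in MAPC, 0.43 and 0.37 in ESC and 1.68 and 1.63 in NS, and ESC alone was low. Its difference was 1.11 ± 0.06 (SE, adjusted p = 5.96e-06) for MAPC minus ESC and -1.25 ± 0.06 (SE, adjusted p = 2.85e-06) for ESC minus NS, and -0.14 (adjusted p = 0.121) for MAPC minus NS, while its other probe gave 0.53 and -0.53 in the first pair of contrasts. Vps25, of ESCRT-II, had 0.67 and 0.72 in MAPC, 0.48 and 0.44 in ESC and 0.23 and 0.36 in NS, higher in MAPC than in NS by 0.39 ± 0.06 (SE, adjusted p = 0.00122), while its 0.23 against ESC was lost without array MAPC 2, ESC 1 or ESC 2 (0.21 to 0.25, adjusted p from 0.0503 to 0.101).

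Tethering genes moved by less. Of 6 tested genes grouped here as HOPS and CORVET, 4 were higher and 2 lower for MAPC minus ESC, with differences between -0.43 and 0.26. For MAPC minus NS, 3 were higher and 1 lower, with differences between -0.67 and 0.61. The 6 include Vps33b, which is usually placed in a complex apart from that of Vps33a and was counted as higher in both contrasts. The calls of the 6 were small. The number higher than ESC was 1 without array MAPC 1 or ESC 2 and 2 without array MAPC 2. The number higher than NS was 1 without array MAPC 1. With the sample channel alone, 2 were higher than ESC, none was lower, and Vps39, which binds late endosomes, turned to -0.16, against 0.23 with the ratio. Among the named ones, the MAPC minus ESC calls of Vps18, Vps16 and Vps41 and the ESC minus NS call of Vps41 were lost in that setting. Vps18, a core subunit, had 1.94 and 1.93 in MAPC, 1.67 and 1.71 in ESC and 1.35 and 1.31 in NS, higher in MAPC by 0.25 ± 0.05 (SE, adjusted p = 0.00648) and 0.61 ± 0.05 (SE, adjusted p = 3.41e-05). Vps16, another core subunit, had 0.71 and 0.54 in MAPC, 0.95 and 0.94 in ESC and 1.30 and 1.29 in NS and went the other way, with differences of -0.32 ± 0.07 (SE, adjusted p = 0.00572) and -0.67 ± 0.07 (SE, adjusted p = 8.13e-05). Vps41, specific to HOPS, had -0.77 and -0.79 in MAPC, -0.32 and -0.37 in ESC and -0.71 and -0.67 in NS, and was highest in ESC, with differences of -0.43 ± 0.05 (SE, adjusted p = 0.000381) for MAPC minus ESC and 0.34 ± 0.05 (SE, adjusted p = 0.00125) for ESC minus NS, or -0.22 and 0.25 with its other probe.

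Vps33b had 0.13 in MAPC, -0.09 and -0.17 in ESC and -0.41 and -0.42 in NS, with 1 MAPC array measured. With its spread again taken from the other groups, the difference was 0.55 ± 0.07 (SE, adjusted p = 0.000836) for MAPC minus NS. Its 0.26 against ESC was lost when replicate number entered as a block (0.24, adjusted p = 0.0546). It was also lost without array ESC 2, NS 1 or NS 2 (0.22 to 0.26, adjusted p from 0.0588 to 0.0903). GARP and EARP are tethers of the Golgi and recycling endosomes. Of their 3 tested genes, none was called for MAPC minus ESC with limma (unadjusted p from 0.0532 to 0.145). For MAPC minus NS 2 were higher, or 1 without array MAPC 1 or NS 2, and none with the sample channel alone. Vps50 had 0.52 and 0.34 in MAPC, 0.53 and 0.59 in ESC and 0.09 and 0.04 in NS, higher than in NS by 0.37 ± 0.07 (SE, adjusted p = 0.00355) in MAPC and 0.49 ± 0.07 (SE, adjusted p = 0.000867) in ESC, both lost with the sample channel alone. Vps53 had 0.93 and 0.80 in MAPC, 0.78 and 0.71 in ESC and 0.69 and 0.57 in NS, and its 0.23 for MAPC minus NS was lost without array MAPC 1 or NS 2 (0.17, adjusted p from 0.153 to 0.171).

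Vps45, a partner of endosomal SNARE proteins, had 0.55 and 0.41 in MAPC, 0.59 and 0.50 in ESC and 1.13 and 0.99 in NS, lower in MAPC and in ESC than in NS, with differences of -0.58 ± 0.08 (SE, adjusted p = 0.000479) and -0.52 ± 0.08 (SE, adjusted p = 0.00105). Vps72, which shares the Vps name but is a subunit of chromatin remodelling complexes, had 0.23 and 0.35 in MAPC, 0.81 and 0.61 in ESC and 0.79 and 0.83 in NS and was lower in MAPC, with differences of -0.43 ± 0.08 (SE, adjusted p = 0.00347) and -0.52 ± 0.08 (SE, adjusted p = 0.000957). The MAPC minus NS calls of both genes, and the MAPC minus ESC call of Vps72, were lost with the sample channel alone. Vps13a, a lipid transfer protein, was not called in any contrast.

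**Figure D5:**
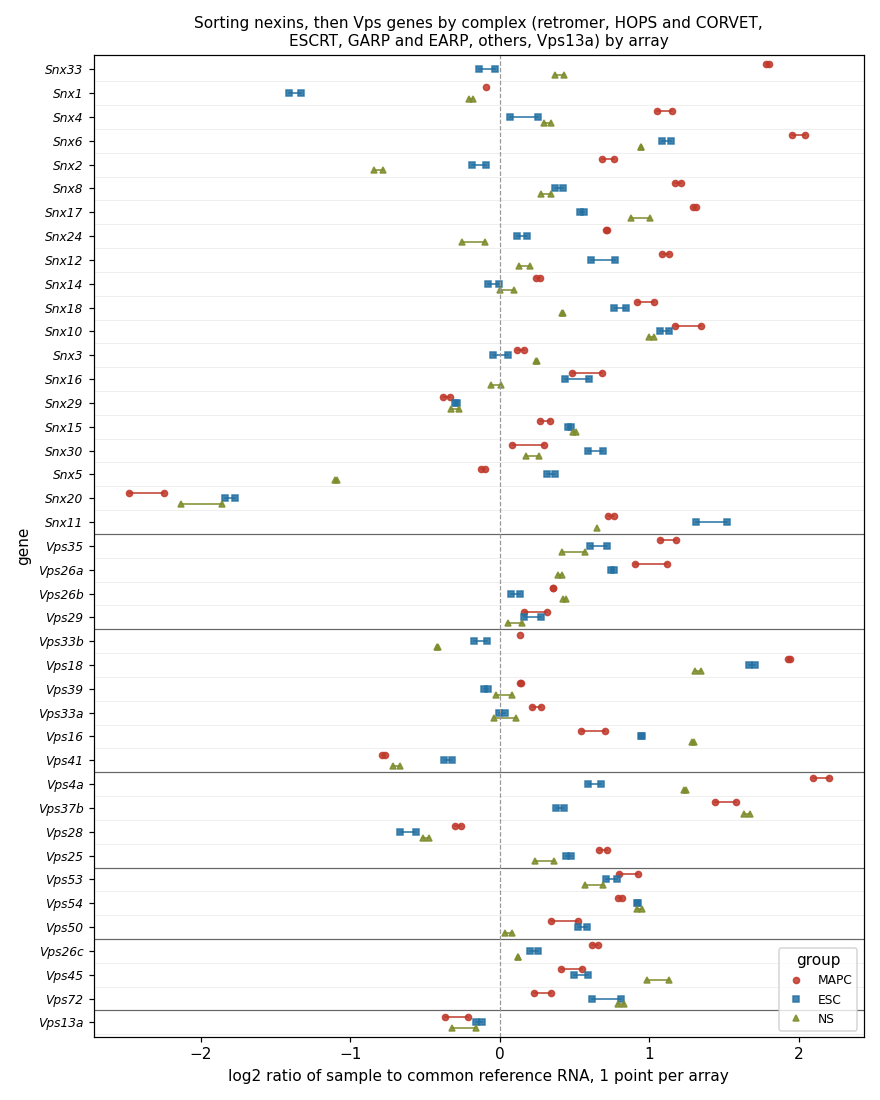
Each point is the log2 ratio to the reference pool on 1 array for a sorting nexin (top block) or a Vps gene by complex, by group. Snx33, Snx2, Snx4, Snx6 and Vps4a are highest in MAPC, Snx1 and Vps37b are low in ESC alone, and Snx5 is highest in ESC.

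Genes outside the named families that serve the same pathways were counted by list. For comparison, 21.1% of named genes were higher and 29.3% lower for MAPC minus ESC (16% and 22.1% of all genes). For MAPC minus NS the shares were 28.8% and 26.4% (21.2% and 22.6% of all genes). Of 28 acid hydrolases with a value, 13 were higher and 6 lower in MAPC than in ESC (median 0.21), and 9 were higher and 7 lower than in NS (median 0.06). Their shares against NS were near those of named genes. Pla2g15, the lysosomal phospholipase, was higher by 1.22 and 2.18. Dnase2a, which digests DNA in lysosomes, was lower, with differences of -1.99 and -2.33. Of 18 other lysosomal membrane and activator genes, 7 were higher and 4 lower than in ESC and 7 higher and 6 lower than in NS. Laptm4b, a lysosomal transmembrane protein, was lower, with differences of -2.04 and -3.12, and Ctns, the cystine exporter, was higher by 1.13 and 0.91.

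Of 7 sorting receptors, 2 were higher and 1 lower than in ESC, and 2 were higher and 2 lower than in NS. M6pr, the smaller mannose 6-phosphate receptor that delivers hydrolases, had 1.02 and 0.92 in MAPC, -0.01 and 0.01 in ESC and -0.31 and -0.30 in NS, higher in MAPC by 0.97 ± 0.06 (SE, adjusted p = 5.49e-06) and 1.28 ± 0.06 (SE, adjusted p = 8.27e-07). Of 22 clathrin and adaptor genes, 11 were higher and 4 lower than in ESC (median 0.22), and 11 were higher and 3 lower than in NS (median 0.28). Ap2a2, a large subunit of the endocytic adaptor, had 1.35 and 1.46 in MAPC, -0.88 and -0.81 in ESC and -1.10 and -1.15 in NS, with 2.25 ± 0.06 (SE, adjusted p = 1.48e-07) and 2.53 ± 0.06 (SE, adjusted p = 4.71e-08), and Ap1m2, an adaptor subunit of epithelial cells, was lower than in ESC, with a difference of -1.71 and adjusted p = 2.42e-05.

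Of 17 ESCRT genes outside the Vps names, 10 were higher and 3 lower than in ESC, and 7 were higher and 3 lower than in NS. Mvb12b, of ESCRT-I like Vps37b, was low in ESC alone, at 1.00 and 1.12 in MAPC, -1.77 and -1.79 in ESC and 1.12 in NS, with 1 NS array measured. Its difference was 2.84 ± 0.06 (SE, adjusted p = 2.4e-07) for MAPC minus ESC and, with the spread of NS taken from the other groups, -2.90 ± 0.08 (SE, adjusted p = 4.83e-07) for ESC minus NS. Of 27 Rab regulators and early endosome effectors, 12 were higher and 9 lower than in ESC, and 10 were higher and 9 lower than in NS. Ehd1, which pinches recycling tubules, was higher by 0.89 and 1.81, and Appl2, a Rab5 effector, was lower than in NS, with a difference of -2.47. Of 4 retromer partners with a value, 1 was higher and 1 lower in each MAPC contrast. Of 7 cathepsin inhibitors, 3 were higher and 2 lower than in ESC, and 4 were higher and 1 lower than in NS, among them Cst3, the secreted cystatin C, by 1.27 and 0.34 in MAPC and Serpinb6b by 1.50 and 1.82.

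Of 11 regulators of lysosomal transcription, 5 were higher and 3 lower in MAPC than in ESC (median 0.14), and 5 were higher and 4 lower than in NS (median 0.10). Tfec, of the Mitf and Tfe family, had 3.98 and 3.59 in MAPC, -0.11 and -0.13 in ESC and -0.46 and -0.45 in NS. Both MAPC arrays stood far above the other 4, by 3.91 ± 0.11 (SE, adjusted p = 1.84e-07) and 4.25 ± 0.11 (SE, adjusted p = 6.88e-08). Mitf had 1.37 and 1.44 in MAPC, 0.26 and 0.10 in ESC and -0.13 and -0.07 in NS, with 1.23 ± 0.07 (SE, adjusted p = 4.81e-06) and 1.50 ± 0.07 (SE, adjusted p = 1.07e-06). Rragd, a GTPase that brings nutrient signals to mTORC1 on lysosomes, had -0.10 and -0.18 in MAPC, 2.14 and 1.94 in ESC and 2.45 and 2.46 in NS and was called lower in MAPC than in both others (adjusted p = 3.82e-07 and 9.53e-08). Its spot was well above background on 1 of the 2 MAPC arrays, with background-subtracted intensities of 4.41 and 11.3, so the size of these differences is not given. Tfeb, the best known activator of lysosomal genes, was not called in any contrast, at -0.04 and -0.10 in MAPC, -0.06 and -0.05 in ESC and -0.05 and -0.06 in NS.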

How the data were processed

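The members and the pathway and marker lists were chosen with earlier results of these data known. Each array set Cy3-labelled sample against Cy5-labelled reference pool, with no dye swap, per the labels. Per the file headers, the authors obtained each deposited spot intensity with Agilent Feature Extraction A.7.5.1. The deposited log10 ratio was red over green, that is reference over sample, and was used to check direction. A deposited table of log10 values that followed the processed sample signal, with normalization not stated, served as an alternative.

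From mean and background intensities, normexp (offset 50) and loess within arrays gave log2 ratios of sample to pool (R 4.3.3, limma 3.58.1). Controls were dropped, as were spots that the software marked as outliers. Probes were named through RefSeq transcript accessions or symbols: 15429 were named and 25577 were not. A gene was its brightest probe, kept where it was well above background on both arrays of some group. A limma fit of 6 arrays had 3 residual degrees of freedom, with Benjamini-Hochberg adjustment over all genes. The fit was tested on simulated data. The number of arrays limits precision.

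Samples with the same replicate number, which coincides with the reading day in the headers, deviated together in all pairs of groups (r = 0.101, 0.162 and 0.208 over genes), so the number was also tried as a block. Values per array are given for cathepsins, Lamp genes, the 2 largest called differences per class and direction, and the 10 largest per contrast. Other members are given by counts and chosen examples. Alternatives covered background correction, normalization, filters, probe choice, samples in the fit and each array left out. The labels call the MAPC arrays mMAPC-1 and clone 2, and which clone name holds is not known here.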

Additional observations from a re-analysis of the deposited data

How the results depend on the processing

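Across the alternatives, the counts of called members stayed within 1.5 times of those reported, apart from the 2-fold rule and the sample channel alone. Requiring a 2-fold difference left 11 members higher and 8 lower for MAPC minus ESC, 11 and 13 for MAPC minus NS, and 7 and 9 for ESC minus NS. With the sample channel alone, 15 members were lower for MAPC minus ESC and 20 were higher for ESC minus NS. That setting also turned 4 single values, to -0.16 for Vps39 in MAPC minus ESC, 0.46 for Ctsg and 0.59 for Snx30 in MAPC minus NS, and -0.031 for Snx6 in ESC minus NS, and the cause was not tested. Leaving out each array in turn gave 44 to 48 higher and 25 to 28 lower for MAPC minus ESC, 48 to 55 and 22 to 29 for MAPC minus NS, and 34 to 45 and 29 to 33 for ESC minus NS. With replicate number as a block, which is also the reading day, the counts were 49 and 32, 55 and 29, and 45 and 32. The block ended the calls of Vps33b in MAPC minus ESC and Atp6v1c2 in ESC minus NS (adjusted p = 0.0532) and added Rab2b in MAPC minus ESC (adjusted p = 0.0148), Ctss in MAPC minus NS and Rab25 in ESC minus NS (adjusted p = 0.0375), and it changed no other call. Of the called members, 55 of 81, 64 of 83 and 45 of 77 were called under every alternative that gave them a value, in the same order of contrasts, and for 2, 3 and 1 of these, 1 alternative gave none. Without background subtraction, differences of dim genes such as Ctsc, Rab30 and Rab34 shrank, so signal over background limits their size.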
